A study of Mus musculus with 12 samples.

Results

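The genes described here encode the ligands and receptors of the TGFβ and activin pathway. They were 10 named genes of the 24906 listed in each expression table: the ligands Tgfb1, Tgfb2 and Tgfb3, their receptors Tgfbr1, Tgfbr2 and Tgfbr3, the activin receptors Acvr1b and Acvr2a, and the activin subunit genes Inhba and Inhbb. The genes were listed by name and role. Across 12 libraries of mouse tumor organoids, Tgfbr2 and Tgfb1 were among the most abundant transcripts of the group and Inhbb was near 0. With doxycycline (dox), which induces SMAD4 in these organoids, Tgfb1 was higher in 5 of 5 same-line pairs, as were 8.7% of the genes tested in both environments. Tgfbr3 was also higher in 5 of 5 pairs but was too low on plastic for the test. None of the group was called at the adjusted threshold, where 0.0231% of tested genes in BME and 0.0324% on plastic were.

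TGFβ ligands are secreted as latent dimers and must be released before they can signal. The active dimer binds the type II receptor TGFBR2, which recruits and phosphorylates the type I receptor TGFBR1, and the co-receptor TGFBR3 (betaglycan) can present ligand to this pair. Activins are dimers of inhibin β subunits, encoded by Inhba and Inhbb, and signal through the type II receptor ACVR2A and the type I receptor ACVR1B. Both receptor pairs phosphorylate SMAD2 and SMAD3, which join SMAD4 and enter the nucleus, so SMAD4 acts downstream of every gene described here. In the intestinal epithelium the pathway is known for restraining growth, and its components are often mutated in colon cancer.

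The organoids had the genotype Smad4KO;BRAFV600E/+ in all 12 libraries. They were derived from small-intestinal tumors of Smad4f/f; BRAFV600E/+;Villin-CreERT2 mice, in which Cre is driven by the Villin promoter of the intestinal epithelium, and all are labelled as carrying the pINDUCER-SMAD4 lentivirus, from which dox switches SMAD4 on. Organoids were cultured for 48 h with 4 µg/mL dox or without dox, embedded in BME (basement membrane extract, a gel for 3D culture) or attached to tissue culture plastic. The BME set holds untreated libraries of lines 682, 700 and 889, dox libraries of lines 700 and 889, and a line 682 library whose treatment label is dox followed by Mock, 6 libraries in all. The plastic set holds 1 untreated and 1 dox library for each of lines 560, 700 and 889. Each line is an independent organoid line. By the study's methods tamoxifen was given to young adult mice, and a figure legend of the study states that tumor organoids were derived months later. The study counts 4 vehicle and 2 dox libraries in BME, so the Mock library was kept in the control arm, and its genotype label names pINDUCER-SMAD4 as the others do. The study's methods also describe a mock plasmid, and which of these the library carried was not established. Comparisons asked whether the level of each ligand and receptor gene differed when SMAD4 was restored, and whether that difference depended on the environment.

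Levels are given in FPKM, a fragment count corrected for transcript length and library depth. Rebuilt totals were between 14513448 and 16357412 reads for BME libraries and between 16991071 and 21037350 reads for plastic libraries, and 15723 to 16805 genes were above 0. Changes are differences of log2(FPKM + 1), dox minus control, and understate the change of genes with low levels. All 10 epithelial marker genes reached 1 FPKM in at least 1 library, and their summed level was 4427 to 17870 FPKM per library. Of the 9 leukocyte markers found, Cd14 was at 10.9 to 36.8 FPKM and Cd68 at 2.70 to 38.7 FPKM over the 12 libraries, while Ptprc, the pan-leukocyte gene, was at most 0.0958 FPKM. Bulk libraries cannot tell apart fewer cells of a type and less RNA per cell.

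Smad4, the induced gene, was examined first because it checks the labels. In BME it measured 17.2 FPKM in line 700 and 27.3 FPKM in line 889 with dox, 6.53 and 6.23 FPKM in the same lines without, 8.88 FPKM in untreated line 682 and 10.3 FPKM in the line 682 Mock library. On plastic it measured 73.6, 18.1 and 48.9 FPKM with dox in lines 560, 700 and 889, and 1.54, 2.99 and 4.76 FPKM without. Every dox library lay above every control library in both environments, and the Mock library, at 1.16 times its untreated pair, lay below every dox library. Its limma adjusted p was 0.959 in BME and 0.162 on plastic, so Smad4 itself was not called.

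The 10 genes spanned a wide range of levels. In BME, Tgfbr2 was the highest at 109 to 183 FPKM, above all other genes of the group in every library. Acvr1b followed at 25.0 to 56.5 FPKM and Tgfb1 at 21.5 to 43.2 FPKM, and these overlapped. Acvr2a at 8.63 to 11.8 FPKM and Tgfbr1 at 7.10 to 10.2 FPKM overlapped with each other and lay above Tgfb3 in 6 of 6 libraries. Tgfb3, Tgfbr3, Tgfb2 and Inhba came next, each overlapping its neighbour, and Inhbb was at most 0.0571 FPKM.

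On plastic, Tgfbr2 was again the highest at 118 to 303 FPKM and was above Tgfb1 in 6 of 6 libraries, although their ranges overlapped. Tgfb1 was next at 31.0 to 239 FPKM, separate from Acvr1b at 13.0 to 24.1 FPKM, which in turn was separate from Tgfbr1 at 2.56 to 8.23 FPKM. From Tgfbr1 down to Inhbb, each gene overlapped the next one in the order Acvr2a, Tgfb3, Inhba, Tgfb2, Tgfbr3 and Inhbb. The tables of the environments were normalized separately, so no level was tested across them.

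**Figure D1:**
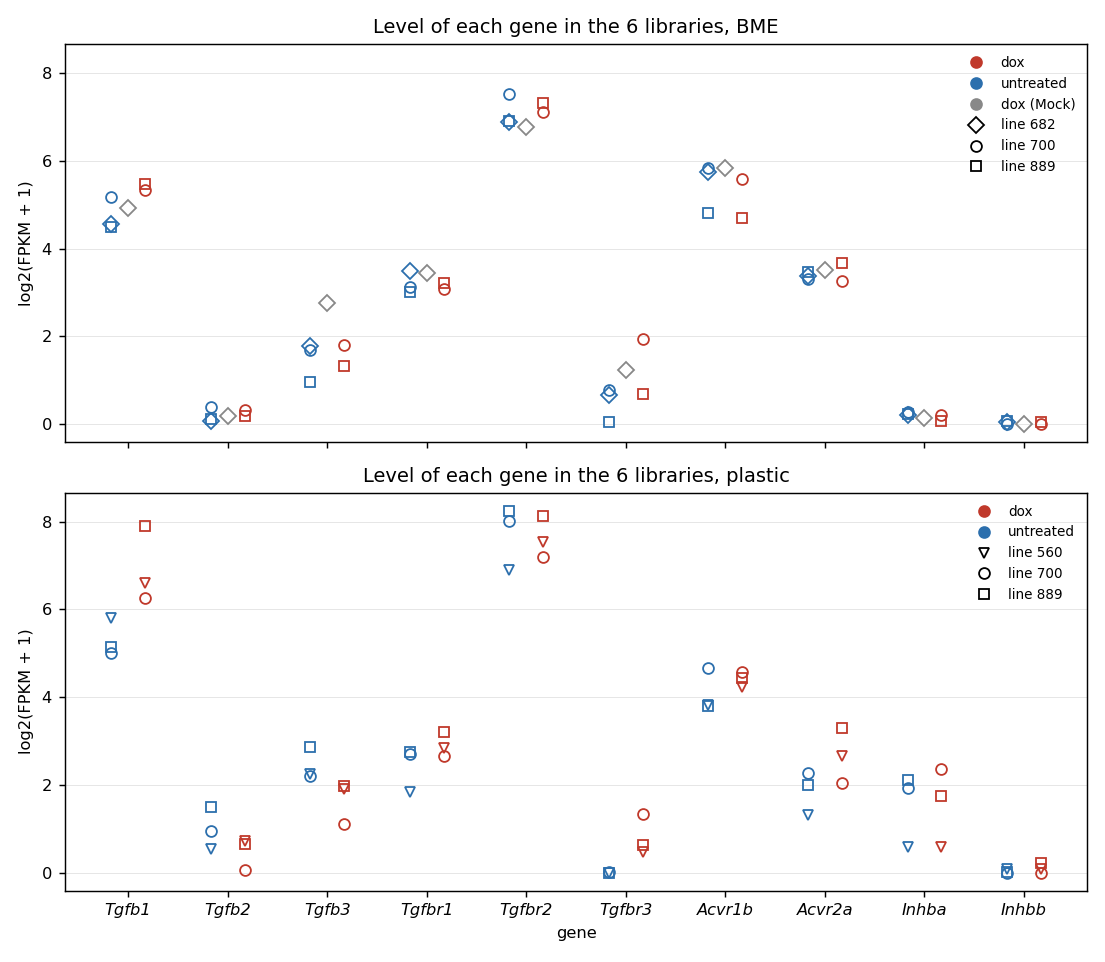
Level of each gene on the log2(FPKM + 1) scale (y axis) in the 6 BME libraries (upper panel) and the 6 plastic libraries (lower panel). Each symbol is 1 library, its shape the organoid line and its colour the treatment, with dox in red, untreated in blue and the dox (Mock) library in grey. Tgfbr2 is the highest gene in all 12 libraries, and Tgfb1 with dox lies above Tgfb1 in controls in both panels.

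The genes lie on 9 chromosomes of the NCBIM37 (mm9) assembly, and all are annotated as protein coding. Tgfb1 is on chromosome 7 from 26472021 to 26490096, Tgfb2 on chromosome 1 from 188447065 to 188529871 and Tgfb3 on chromosome 12 from 87397694 to 87419991. Tgfbr1 is on chromosome 4 from 47366094 to 47427803, Tgfbr2 on chromosome 9 from 115993415 to 116084383 and Tgfbr3 on chromosome 5 from 107535589 to 107718648. Acvr1b is on chromosome 15 from 101004556 to 101043032 and Acvr2a on chromosome 2 from 48669629 to 48758789. Inhba is on chromosome 13 from 16103684 to 16119044 and Inhbb on chromosome 1 from 121312042 to 121318825.

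Promoter sequences, 250 bases before to 50 after the annotated start, were taken from RefSeq on GRCm38.p6, a different build from that of the expression tables, and were found for 8 of the 10 genes. Tgfb3 and Tgfbr3 had no entry. The promoters of Tgfb1, the most abundant ligand gene, of Tgfb2, its scarce relative, and of Tgfbr2, the most abundant receptor gene, are shown because SMAD4 can bind the short DNA motifs CAGAC and GGCGC. Capitals mark each CAGAC and GGCGC on either strand (GTCTG and GCGCC on the strand shown), and each sequence reads 5′ to 3′ on the strand of the gene.
Tgfb1, chromosome 7 from 25686752 to 25687051, plus strand: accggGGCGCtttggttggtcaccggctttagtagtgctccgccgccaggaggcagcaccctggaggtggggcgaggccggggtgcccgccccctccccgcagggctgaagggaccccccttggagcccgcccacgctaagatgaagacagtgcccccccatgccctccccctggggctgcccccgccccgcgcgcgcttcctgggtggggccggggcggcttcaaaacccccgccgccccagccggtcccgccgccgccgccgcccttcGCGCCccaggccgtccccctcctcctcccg
Tgfb2, chromosome 1 from 186705940 to 186706239, minus strand: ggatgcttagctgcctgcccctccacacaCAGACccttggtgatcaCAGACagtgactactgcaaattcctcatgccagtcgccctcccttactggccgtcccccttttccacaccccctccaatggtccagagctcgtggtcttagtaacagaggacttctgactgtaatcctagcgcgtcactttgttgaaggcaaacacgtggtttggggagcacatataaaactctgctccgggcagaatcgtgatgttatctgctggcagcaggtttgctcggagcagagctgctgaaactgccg
Tgfbr2, chromosome 9 from 116175314 to 116175613, minus strand: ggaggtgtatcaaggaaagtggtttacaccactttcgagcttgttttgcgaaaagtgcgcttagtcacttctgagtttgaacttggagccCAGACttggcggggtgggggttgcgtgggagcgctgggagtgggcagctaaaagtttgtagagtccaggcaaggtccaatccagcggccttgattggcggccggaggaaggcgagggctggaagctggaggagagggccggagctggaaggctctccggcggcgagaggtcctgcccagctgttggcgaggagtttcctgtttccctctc
The Tgfb1 window held 2 GGCGC and 0 CAGAC, the Tgfb2 window 2 CAGAC and 0 GGCGC, and the Tgfbr2 window 1 CAGAC and 0 GGCGC. Across 32851 mouse promoters of the same length, 49.6% held CAGAC and 36.9% held GGCGC, so neither is rare. The palindrome GTCTAGAC was in 0.213% of all promoters and in none of the windows of these genes. The Acvr1b window held the most, with 8 GGCGC, and the Inhba window held neither motif.

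Tgfb1 was the main ligand gene and was higher with dox in every pair. In BME, Tgfb1 measured 39.3 FPKM in line 700 and 43.2 FPKM in line 889 with dox, 34.9 and 21.5 FPKM in the same lines untreated, 22.6 FPKM in untreated line 682 and 29.4 FPKM in the line 682 Mock library. Both dox libraries lay above all 4 controls, as in 6.33% of genes tested in BME, and exceeded their own pair by 1.13-fold within line 700 and 2.01-fold within line 889. The Mock library was also higher than its untreated pair, by 1.30-fold. Tgfb1 had a limma change of 0.62 (SE 0.22), with an adjusted p of 0.959.

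On plastic, Tgfb1 measured 96.2, 76.1 and 239 FPKM with dox in lines 560, 700 and 889, and 54.4, 31.0 and 34.5 FPKM without. The 3 dox libraries lay above the 3 untreated ones, as in 7.87% of genes tested on plastic, and the dox library of line 889 stood far above the rest. The fold within lines was 1.77 in line 560, 2.46 in line 700 and 6.92 in line 889. Tgfb1 had a limma change of 1.61 (SE 0.46), with an adjusted p of 0.463. Without the dox library of line 889 the change was 1.12 (SE 0.32), with an adjusted p of 0.985. In BME 27.2% and on plastic 18.6% of tested genes were higher in every dox pair. Among all genes tested in both tables, 8.7% were higher in every dox pair of both environments, and 1.63% had every dox library above every control library in both.

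The library with the highest Tgfb1, plastic with dox in line 889, also had the highest levels of the mesenchymal gene Vim and of Cd68, a lysosomal gene used as a macrophage marker. Vim measured 21.6 FPKM there and at most 2.53 FPKM in the other 11 libraries, and Cd68 measured 38.7 FPKM there and at most 16.2 FPKM in the others. Of 12 fibroblast and smooth muscle markers, 1 of 12 (Vim) reached 1 FPKM in a plastic dox library, and their sum was 0.754 to 21.9 FPKM with dox and 0.861 to 0.968 FPKM without. Of the 9 leukocyte markers found, 2 of 9 reached 1 FPKM with dox on plastic, with a sum of 14.8 to 65.1 FPKM against 23.5 to 43.0 FPKM without. Ptprc was at most 0.0360 FPKM on plastic, Cd3e and the macrophage gene Adgre1 were at 0 in every plastic library, and Lum and Thy1 of the fibroblast list were also at 0 there. The part of Vim and Cd68 in the Tgfb1 level of this library was not tested.

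Tgfb2, which encodes the second ligand, was scarce. In BME, Tgfb2 measured 0.248 and 0.133 FPKM with dox in lines 700 and 889, 0.301 and 0.0829 FPKM in the same lines untreated, 0.0512 FPKM in untreated line 682 and 0.132 FPKM in the line 682 Mock library, which corresponds to 4 to 23 reads. The groups overlapped, and the gene was under the minimum mean of 0.5 FPKM for a test. On plastic, Tgfb2 measured 0.652, 0.0455 and 0.584 FPKM with dox in lines 560, 700 and 889, and 0.449, 0.919 and 1.84 FPKM without, from 4 to 200 reads. It was lower with dox in lines 700 and 889 and higher in line 560. Its mean on plastic was 0.427 FPKM with dox and 1.07 FPKM without, so it passed the filter only through its untreated libraries. The limma change was -0.51 (SE 0.33), with an adjusted p of 0.755. It was -0.25 without the untreated library of line 889 and -0.30 without the dox library of line 700, and -1.29 with a pseudocount of 0.1 and -1.87 by limma-voom on rebuilt reads.

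Tgfb3 had the opposite sign in the pairs of the environments. In BME, Tgfb3 measured 2.51 FPKM in line 700 and 1.51 FPKM in line 889 with dox, 2.22 and 0.944 FPKM in the same lines untreated, 2.41 FPKM in untreated line 682 and 5.73 FPKM in the line 682 Mock library. The dox libraries lay within the range of the controls, although each was higher than its own untreated pair, and the Mock library was the highest of the 6. Tgfb3 had a limma change of -0.22 (SE 0.48), with an adjusted p of 0.979, which was 0.25 (SE 0.35) with the line as a block and 0.10 (SE 0.34) without the Mock library. It was also positive, at 0.0184, without the dox library of line 889, and it was -0.23 without the untreated library of line 682. It was further below 0, at -0.50, without the untreated library of line 889 and, at -0.47, without the dox library of line 700.

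On plastic, Tgfb3 measured 2.77, 1.17 and 2.96 FPKM with dox in lines 560, 700 and 889, and 3.77, 3.63 and 6.25 FPKM without. Every dox library lay below every untreated library, as did those of 7.26% of all genes tested on plastic. Tgfb3 had a limma change of -0.77 (SE 0.33), with an adjusted p of 0.606, and of -0.49 without the dox library of line 700. The difference of the dox change between plastic and BME was -0.55 (SE 0.61), with an adjusted limma p of 1.0. It was -1.01 (SE 0.44) with the line as a block, with an adjusted limma p of 0.915. For comparison, 2.25% of the 11977 genes tested in both tables had all pairs higher in BME and all pairs lower on plastic.

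**Figure D2:**
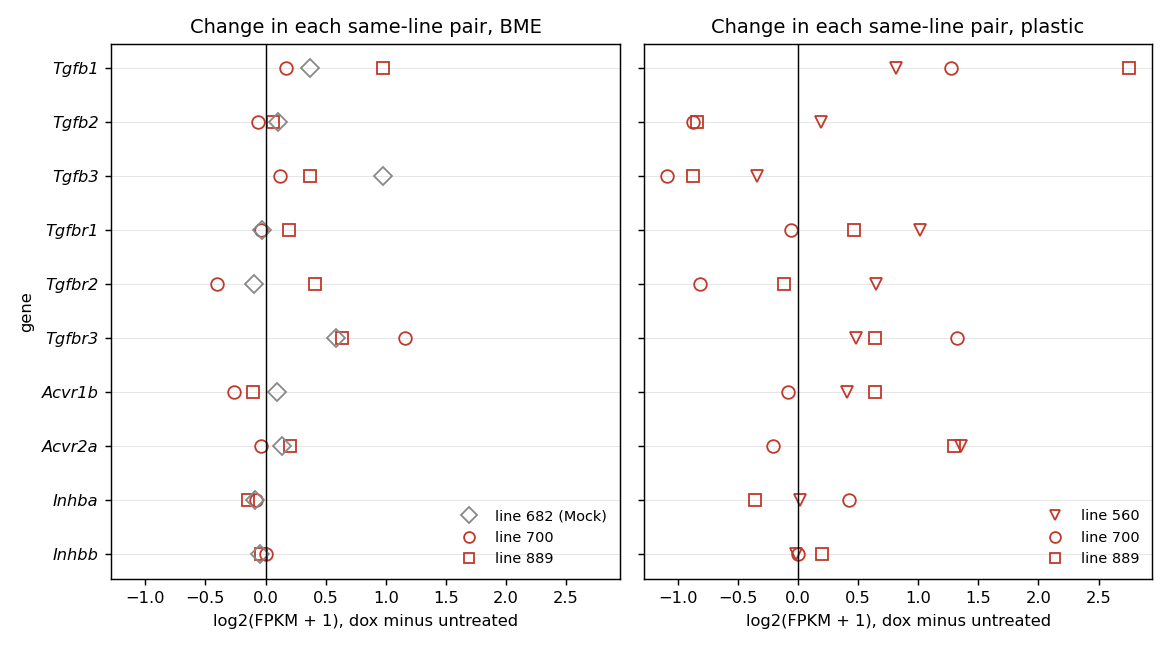
Change of each gene within each same-line pair on the log2(FPKM + 1) scale (x axis, dox minus untreated), for BME (left) and plastic (right). Each symbol is 1 pair, shaped by line, with the pair that holds the Mock library in grey. Tgfb1 and Tgfbr3 lie to the right of 0 in every pair, Tgfb3 lies to the right of 0 in BME and to the left on plastic, and the receptors of activin scatter around 0 in BME.

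The ligand genes were also read against each other. Tgfb1 gave 93.5% and 96.3% of the summed FPKM of the 3 TGFβ genes with dox in BME, and 83.4% to 95.4% in the 4 controls, and these overlapped. On plastic its share was 96.6%, 98.4% and 98.5% with dox in lines 560, 700 and 889, and 92.8%, 87.2% and 81.0% without. The mean share on plastic was 97.85% ± 1.11 (SD, n = 3) with dox and 87.0% ± 5.89 (SD, n = 3) without, with no overlap. This share and the receptor ratios below were chosen after the levels had been seen, so they are descriptions with no test, and the separation on plastic follows from the levels of Tgfb1 and Tgfb3 already given.

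Tgfbr1, the type I receptor gene, was present at moderate levels. In BME, Tgfbr1 measured 7.46 and 8.28 FPKM with dox in lines 700 and 889, 7.66 and 7.10 FPKM in the same lines untreated, 10.2 FPKM in untreated line 682 and 9.94 FPKM in the line 682 Mock library. The groups overlapped and line 682 was the highest. On plastic, Tgfbr1 measured 6.18, 5.27 and 8.23 FPKM with dox in lines 560, 700 and 889, and 2.56, 5.53 and 5.69 FPKM without. It was higher with dox in lines 560 and 889 and close to its pair in line 700. Tgfbr1 had a limma change of -0.12 (SE 0.19) in BME and 0.47 (SE 0.32) on plastic, with adjusted p-values of 0.965 and 0.762. In BME it was 0.0806 with the line as a block, -0.0589 without the Mock library and 0.0428 with that library in the dox arm, and leaving out 1 library at a time gave -0.20 (untreated line 889) to -0.048 (untreated line 682). On plastic it was 0.17 without the untreated library of line 560.

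Tgfbr2, the type II receptor gene, differed with dox in opposite directions between lines. In BME, Tgfbr2 measured 138 and 159 FPKM with dox in lines 700 and 889, 183 and 119 FPKM in the same lines untreated, 116 FPKM in untreated line 682 and 109 FPKM in the line 682 Mock library. Its level with dox was lower in line 700 and higher in line 889. On plastic, Tgfbr2 measured 185, 145 and 279 FPKM with dox in lines 560, 700 and 889, and 118, 256 and 303 FPKM without. Here its level with dox was higher in line 560 and lower in lines 700 and 889. Tgfbr2 had a limma change of 0.20 (SE 0.24) in BME and -0.10 (SE 0.42) on plastic, with adjusted p-values of 0.963 and 0.975. In BME it was 0.0050 with the line as a block, 0.12 without the Mock library and -0.0286 with the Mock library in the dox arm, and leaving out 1 library gave 0.10 (dox line 889) to 0.37 (untreated line 700). On plastic leaving out 1 library gave -0.51 (untreated line 560) to 0.17 (untreated line 889), and the sign turned.

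Neither receptor gene was called, and the ratio of the pair did not overlap between the arms on plastic. Of single genes tested there, 7.87% lay fully above and 7.26% fully below with dox. No such share was computed for ratios, and this ratio was chosen after the levels had been seen. Tgfbr2 FPKM over Tgfbr1 FPKM was 29.9, 27.5 and 33.9 with dox in lines 560, 700 and 889, and 46.2, 46.2 and 53.2 without. The mean ratio was 30.4 ± 3.25 (SD, n = 3) with dox and 48.5 ± 4.07 (SD, n = 3) without. It was lower with dox in 3 of 3 lines, although the level of Tgfbr2 and of Tgfbr1 differed in direction among those lines. In BME the ratio was 18.5 and 19.2 with dox and 10.9 to 23.8 in the controls, and these overlapped.

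**Figure D3:**
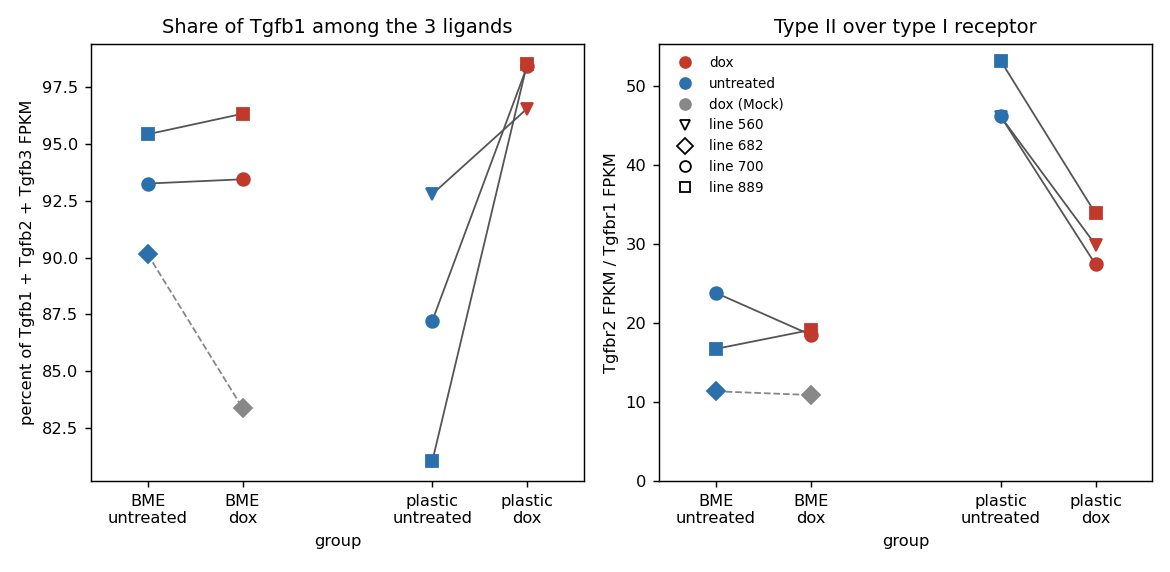
Percent of the summed Tgfb1, Tgfb2 and Tgfb3 FPKM that came from Tgfb1 (left) and the ratio of Tgfbr2 FPKM to Tgfbr1 FPKM (right) in each library, by environment and treatment (x axis). Lines join the libraries of 1 organoid line, with the pair of the Mock library dashed and grey. On plastic the Tgfb1 share is higher with dox in 3 of 3 lines and the receptor ratio is lower in 3 of 3, and in BME the groups overlap. The left axis does not start at 0.

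Tgfbr3, the co-receptor gene, was low throughout and nearly at 0 on plastic without dox. In BME, Tgfbr3 measured 2.84 FPKM (232 reads) in line 700 and 0.599 FPKM (59 reads) in line 889 with dox, against 0.720 FPKM (66 reads) and 0.0297 FPKM (3 reads) untreated. In line 682 it measured 0.578 FPKM (54 reads) untreated and 1.37 FPKM (124 reads) in the Mock library. The level with dox was higher within both lines, but the Mock library was also higher than its pair and the groups overlapped. Tgfbr3 had a limma change of 0.63 (SE 0.46), with an adjusted p of 0.959. It was 1.26 without the dox library of line 889, -0.0042 without that of line 700 and 0.415 without the untreated library of line 889. With the line as a block it was 0.90 (SE 0.28), with an adjusted p of 0.67, and with a pseudocount of 0.1 it was 1.33 (SE 1.10). On rebuilt reads, limma-voom gave 1.73 (SE 1.31), and with at least 10 mean reads and the block 2.35 (SE 0.63), with adjusted p-values of 0.944 and 0.406.

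On plastic, Tgfbr3 measured 0.397, 1.54 and 0.556 FPKM with dox in lines 560, 700 and 889, from 51, 162 and 55 reads. Without dox it was at 0 in lines 560 and 889, and in line 700 it measured 0.0164 FPKM from 2 reads. All 3 dox libraries lay above all 3 untreated ones, which is also so for 7.87% of tested genes. For each library at 0 a limit of 3 reads was taken, and the dox reads were taken as counted. Scaled to library totals, the level with dox was then 17.6-fold that limit in line 560 and 22.7-fold in line 889. In line 700 the ratio was 82.8, with an exact 95% interval of 22.6 to 689. The interval covers counting error only, and the limits of lines 560 and 889 cover that of the untreated library alone. The mean over the 6 libraries was below 0.5 FPKM, so the gene was not in the plastic test.

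Without a filter on low values, the limma change of Tgfbr3 on plastic was 0.81 (SE 0.22), with an adjusted p of 0.524. On rebuilt reads, with genes of at least 10 mean reads kept, limma-voom gave 6.64 (SE 1.37) with an adjusted p of 0.316, and 6.57 (SE 0.67) with an adjusted p of 0.0719 with the line as a block. With untreated libraries at or near 0, the gene entered that fit only through its dox libraries, and the size of each of these changes depends on the value added before the logarithm and is no bound on the fold.

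**Figure D4:**
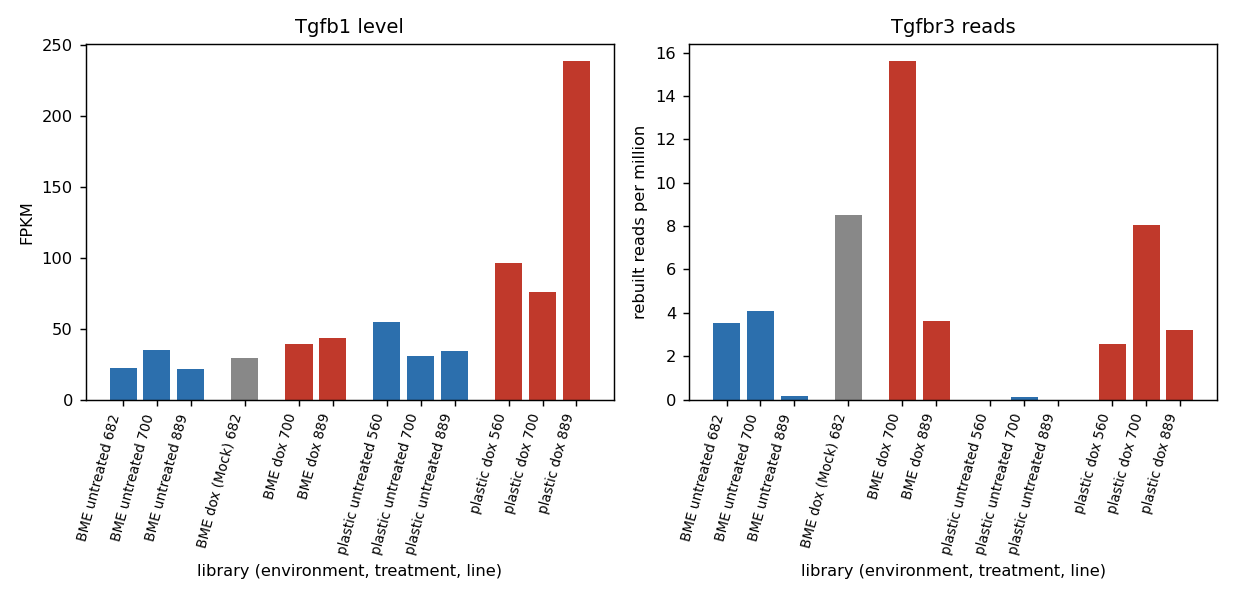
Tgfb1 level in FPKM (left) and Tgfbr3 rebuilt reads scaled to the library total (RPM, right) in each of the 12 libraries, named on the x axis by environment, treatment and line. Untreated libraries are blue, dox libraries red and the dox (Mock) library grey, and each bar is 1 library. Tgfb1 reaches 239 FPKM in the plastic dox library of line 889, and Tgfbr3 is at or near 0 in all 3 plastic libraries without dox.

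Acvr1b, the type I activin receptor gene, was set apart by line in BME. In BME, Acvr1b measured 46.9 and 25.0 FPKM with dox in lines 700 and 889, 56.4 and 26.9 FPKM in the same lines untreated, 52.8 FPKM in untreated line 682 and 56.5 FPKM in the line 682 Mock library. The libraries of line 889 were the lowest in each arm, and the dox library was lower than its pair in both lines. On plastic, Acvr1b measured 17.7, 22.7 and 20.7 FPKM with dox in lines 560, 700 and 889, and 13.1, 24.1 and 13.0 FPKM without. The groups overlapped in both environments. Acvr1b had a limma change of -0.42 (SE 0.39) in BME and 0.32 (SE 0.28) on plastic, with adjusted p-values of 0.959 and 0.823. In BME it was -0.18 with the line as a block and -0.0894 with the Mock library in the dox arm, and leaving out 1 library gave -0.86 (dox line 700) to 0.0203 (dox line 889), where the sign turned. On plastic leaving out 1 library gave 0.18 (untreated line 889) to 0.60 (untreated line 700).

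Acvr2a, the type II activin receptor gene, had a narrow range in BME. In BME, Acvr2a measured 8.63 and 11.8 FPKM with dox in lines 700 and 889, 8.88 and 10.1 FPKM in the same lines untreated, 9.32 FPKM in untreated line 682 and 10.3 FPKM in the line 682 Mock library. On plastic, Acvr2a measured 5.33, 3.14 and 8.85 FPKM with dox in lines 560, 700 and 889, and 1.47, 3.79 and 3.01 FPKM without. The level with dox was 3.63-fold higher in line 560 and 2.94-fold higher in line 889, and lower in line 700, and the groups overlapped. Acvr2a had a limma change of 0.06 (SE 0.17) in BME and 0.81 (SE 0.40) on plastic, with adjusted p-values of 0.984 and 0.649. In BME leaving out 1 library gave -0.14 (dox line 889) to 0.26 (dox line 700), and on plastic it was 0.50 without the dox library of line 889 and 0.54 without the untreated library of line 560. The ratio of Acvr1b to Acvr2a overlapped between the arms in both environments.

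Inhba, which encodes the inhibin βA subunit of activin A, was close to 0 in BME. In BME, Inhba measured 0.151 and 0.0579 FPKM with dox in lines 700 and 889, 0.218 and 0.169 FPKM in the same lines untreated, 0.163 FPKM in untreated line 682 and 0.0944 FPKM in the line 682 Mock library, from 6 to 21 reads. The groups overlapped and the gene was under the minimum for a test. On plastic, Inhba measured 0.509, 4.14 and 2.37 FPKM with dox in lines 560, 700 and 889, and 0.498, 2.83 and 3.32 FPKM without, from 67 to 459 reads. Line 560 was the lowest in both arms, and the arms overlapped. On plastic, Inhba had a limma change of 0.03 (SE 0.58), with an adjusted p of 0.994, and of -0.46 to 0.51 with the untreated or the dox library of line 560 left out. Inhbb, which encodes the βB subunit, had at most 4 reads in any BME library and at most 11 in any plastic library, with 0 in 5 of the 12, and it was under the minimum for a test. Its highest value was 0.161 FPKM (11 reads) with dox on plastic in line 889, against 0.0111 FPKM (1 read) untreated, a ratio of 13.6 scaled to library totals, with an exact 95% interval of 1.98 to 586 that covers counting error only. In the other 2 plastic lines it was at 0 in both arms of line 700, and in line 560 it measured 0.0561 FPKM with dox and 0.0677 FPKM without.

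Of the 10 genes, 7 passed the filter in BME and 8 on plastic. Of those, 0 of 7 and 0 of 8 were called at an adjusted limma p under 0.05 with an absolute change over 1, where 0.0231% and 0.0324% of all tested genes were called. With the line as a block, 0% and 0.0568% of all tested genes were called and again none of these. At an unadjusted p under 0.05 there was 1 gene of the group in each environment, Tgfb1 both times, where 4.09% and 8.29% of all tested genes passed. With the line as a block the genes under that limit were Tgfbr3 in BME and Tgfb1 and Tgfb3 on plastic, where 7.41% and 13.5% of all tested genes passed, and Tgfb1 in BME was no longer among them. The median change was 0.06 for the 7 genes in BME and 0.17 for the 8 on plastic, or 0.32 for the 7 without Tgfb2, which passed through 1 arm only, against -0.01 and 0.01 over all genes tested. The difference of the dox change between environments could be tested for 6 genes, and none was called or had an unadjusted p under 0.05, a limit that 2.53% of the 11977 genes passed, and 5.42% with the block. That difference was 1.00 (SE 0.56) for Tgfb1, 0.75 (SE 0.47) for Acvr2a and 0.74 (SE 0.50) for Acvr1b. For Tgfb1 it was 0.51 (SE 0.39) without the plastic dox library of line 889. For Acvr1b it was 0.30 without the BME dox library of line 889 and 1.18 without that of line 700, and for Acvr2a it was 0.44 without the plastic dox library of line 889 and 0.48 without the untreated library of line 560.

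The other genes of the pathway were read from lists ordered by role. No gene of the 6 lists was called in either environment. Among 10 other ligand genes, only Inha, the inhibin α subunit, and Gdf15, a stress-induced ligand of the superfamily, were high enough to test. Gdf15 measured 38.4 ± 11.1 FPKM on plastic in dox libraries (SD, n = 3) and 94.2 ± 47.2 FPKM (SD, n = 3) without, and was lower in 3 of 3 pairs, with an adjusted limma p of 0.599. In BME it was higher with dox in 2 of 2 pairs, by 0.48 and 0.12 on the log2(FPKM + 1) scale, while its unpaired limma change was -0.19 (SE 0.68). Inha had a limma change of -0.19 (SE 0.46) in BME and -0.76 (SE 0.61) on plastic. The median change of these 2 genes, the only ones of the list tested, was -0.19 in BME and -0.95 on plastic and describes no other ligand gene.

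Of 8 other receptor genes, 2 were tested in BME and 3 on plastic. Acvr1, a type I receptor of BMP ligands and activins, measured 39.2 ± 28.1 FPKM on plastic in dox libraries (SD, n = 3) and 13.7 ± 2.0 FPKM (SD, n = 3) without, with an adjusted limma p of 0.583. Acvr1c, a type I receptor of nodal and activins, measured 1.42 ± 1.64 FPKM on plastic in dox libraries (SD, n = 3) against 0.00534 ± 0.00545 FPKM (SD, n = 3), so it passed the filter only through its dox libraries. Acvr2b, the other type II activin receptor, had a limma change of -0.33 (SE 0.20) in BME. No median is given for the list, since on plastic that value would be the change of Acvr1c itself.

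Genes for ligand latency and activation were 9 of 16 tested in BME and 10 of 16 on plastic. With dox, 1 in BME and 2 on plastic were higher at an unadjusted p under 0.05, and 0 were lower in either, where 4.09% and 8.29% of all tested genes passed in either direction. In BME this was Itgav, the integrin αV subunit, with a limma change of 0.63 (SE 0.25). On plastic these were Itgb1, the integrin β1 subunit, with a limma change of 0.87 (SE 0.33), and Furin, a protease that cleaves the TGFβ precursor, with 0.52 (SE 0.21). Ltbp1, which binds latent TGFβ, had 0.69 (SE 0.42) on plastic, where it was at a mean of 1.02 FPKM with dox and 0.133 FPKM without, so that it passed the filter through its dox libraries. In BME the largest changes of 1 sign in both pairs were those of Fn1, fibronectin, with 1.16 (SE 0.57), Ltbp4 with -0.90 (SE 0.41) and Ltbp3 with 0.87 (SE 0.51). The differences within lines 700 and 889 were 1.93 and 1.10 for Fn1, -0.86 and -0.0023 for Ltbp4, which was thus level in line 889, and 0.17 and 0.45 for Ltbp3, while the limma changes also draw on the 2 control libraries of line 682. The median of the list was 0.07 in BME and 0.36 on plastic, or 0.20 there without Ltbp1. Of 6 extracellular inhibitor genes, 2 were tested in each environment. Fst, which encodes the activin-binding protein follistatin, was higher in 5 of 5 pairs, as were 8.7% of the genes tested in both environments. Its limma changes were 0.81 (SE 0.27) in BME and 0.98 (SE 0.56) on plastic, with adjusted p-values of 0.959 and 0.707. Fstl3, a relative of follistatin, had 0.37 (SE 0.54) in BME, with 0.28 and 0.0098 within lines 700 and 889, and the median of the inhibitors was 0.59 in BME and 0.64 on plastic.

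All 17 intracellular transducers and regulators were tested in both environments, and 3 in each were higher at an unadjusted p under 0.05, against 4.09% of all tested genes in BME and 8.29% on plastic in either direction. In each environment 1 of the 3 was the induced Smad4 itself. The others were Smad7, an inhibitory SMAD, and Pmepa1, a membrane inhibitor of the pathway, in BME, and Smad7 and Skil, a SMAD co-repressor, on plastic. Smad7 measured 4.98 ± 0.232 FPKM in BME in dox libraries (SD, n = 2) and 3.52 ± 0.401 FPKM (SD, n = 4) in controls, and 22.6 ± 8.82 FPKM on plastic in dox libraries (SD, n = 3) and 9.45 ± 3.52 FPKM (SD, n = 3) without. Its limma change was 0.41 (SE 0.16) in BME and 1.16 (SE 0.37) on plastic, where Skil had 0.91 (SE 0.36), and Pmepa1 had 0.86 (SE 0.28) in BME, with 0.07 within line 700 and 1.34 within line 889. The median of the 17 genes was -0.02 in BME and 0.16 on plastic.

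Of 19 response genes found, 16 were tested in BME and 15 on plastic. At an unadjusted p under 0.05, 4 were higher and 1 lower in BME, and 6 were higher and 1 lower on plastic, where 4.09% and 8.29% of all tested genes passed in either direction. Among the higher ones were Smad7 in both environments, Pmepa1 in BME and Skil on plastic, all of the preceding list. The median was 0.325 in BME and 0.82 on plastic. Id3 and Id1, which encode inhibitors of helix-loop-helix factors and are also known as BMP targets, had the largest changes. The limma change of Id3 was 4.09 (SE 0.43) in BME and 3.90 (SE 0.79) on plastic, and that of Id1 was 2.73 (SE 0.40) and 2.39 (SE 0.70). Cdkn2b, a cell cycle inhibitor gene, was the one lower on plastic, with a limma change of -0.82 (SE 0.22), and Cdkn1a, another inhibitor, had 1.88 (SE 0.30). The adjusted limma p of Id3 was 0.157 in BME and 0.281 on plastic. Tgfbi, which encodes a secreted matrix protein, was the gene lower in BME, with 1.19 ± 0.646 FPKM in dox libraries (SD, n = 2) and 4.64 ± 2.56 FPKM (SD, n = 4) in controls.

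The patterns of 6 genes with a mean of at least 1 FPKM in both tables were set against 11078 genes over the 12 libraries, after the mean of each table was subtracted. The values are descriptions, since libraries share lines and treatments. The closest genes to Tgfb1 were Slc49a4 and Rab20, with a Pearson r of 0.956 and 0.951. Those closest to Tgfb3 were Rims2 and Tbc1d9b, at 0.945 and 0.939. For Tgfbr1 they were Twsg1 and Fgfr1op, at 0.973 and 0.97, and for Tgfbr2 Inpp4b and Vkorc1l1, at 0.92 and 0.918. For Acvr1b they were Aste1 and Prickle3, at 0.952 and 0.941, and for Acvr2a Lratd2 and Zfp26, at 0.951 and 0.95. Within the group itself, Tgfbr1 and Acvr2a were the closest pair at 0.845, followed by Tgfb1 and Acvr2a at 0.663, and Tgfb1 and Tgfb3 had the lowest r at -0.257.

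Fibroblast, smooth muscle and endothelial markers were low in most libraries, while the leukocyte sum was not. Summed fibroblast and smooth muscle markers in BME were 1.33 to 9.94 FPKM with dox and 1.25 to 4.70 FPKM in controls, with 3 and 2 of 12 genes reaching 1 FPKM in a library. Summed endothelial markers were 0.227 to 4.14 FPKM with dox and 0.381 to 2.57 FPKM in controls in BME, with 1 and 2 of 6 genes reaching 1 FPKM, and 0.690 to 3.17 against 0.172 to 1.5 FPKM on plastic, with 1 and 0 of 6. Summed leukocyte markers in BME were 28.2 to 36.3 FPKM with dox and 35.9 to 44.7 FPKM in controls, with 3 and 2 of 9 genes reaching 1 FPKM, and most of it came from Cd14 and Cd68. Summed epithelial markers were 8118 to 10180 FPKM with dox and 4427 to 5625 FPKM in controls in BME, and 12310 to 17870 against 13710 to 15400 FPKM on plastic, with 10 of 10 genes reaching 1 FPKM. The epithelial sum did not overlap between the arms in BME, and its part in the values of the ligand and receptor genes there was not tested.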

How the data were processed

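RNA-Seq of 12 organoid libraries was analysed. Per the study's methods and the submitters' processing notes, the authors quantified reads with kallisto, compared groups with DESeq2 and worked on mm9, with versions not given in the sources used here. The authors deposited FPKM values in 1 table per environment, each normalized on its own 6 libraries. The deposited comparison tables hold a mean normalized count (a signal over the 6 libraries), fold changes and p-values, of which only the mean was used. Reads were rebuilt from that mean and the FPKM, and between 82.5% and 87.6% of the low values in a library lay within 0.03 of a whole read. These totals give the depth, and counting intervals and limits cover counting error only.

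Groups were taken from the sample labels. Genes with a mean of at least 0.5 FPKM were tested on log2(FPKM + 1), with a pseudocount of 1, by limma 3.58.1 (lmFit, eBayes with trend, two-sided, R 4.3.3) without a block, with Benjamini-Hochberg adjustment over 12996 genes in BME, 12333 on plastic and 11977 for the interaction of dox and environment. Calls required an absolute change over 1 besides an adjusted p under 0.05. The code was tested on simulated data with large changes, independent noise and no line effect. That checks the code and not the power of these comparisons. Exact binomial intervals were computed with scipy 1.17.1. Nothing states that libraries of a group came from separate animals, so p-values measure the spread between these libraries. Line numbers pair libraries: deviations from group means of same-line libraries correlated at 0.648, 0.706 and 0.743 in BME and 0.461, 0.612 and 0.247 on plastic, and the labels give the same line number to both.

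The genes and lists were chosen with earlier results of these data known. Named genes were all 10 genes, Smad4 and, per list and environment, called genes or else the 3 tested genes with the largest change of 1 sign in every dox pair, plus for each gene of at least 1 FPKM the 2 genes of highest Pearson r. 1 gene of this rule is not reported here. Ptprc, Cd68, Cd14, Vim and other single markers, Itgav, Cdkn2b and Cdkn1a, and the Acvr1b and Inhba promoters, were named after their values were seen. Ctgf and Emr1 were not found under those symbols. Alternatives were another pseudocount, other filters, a line block, limma-voom on rebuilt reads, median centring, the place of the Mock library and leaving out each library. limma-voom with at least 10 mean reads, with and without the block, was chosen after seeing the data.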

Additional observations from a re-analysis of the deposited data

Results flagged for a closer look

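Among the levels of the 10 genes in the 4 BME control libraries, 2 of 10 had a library far from the other 3, where chance gives about 1 in 20, or 0.5 of 10. That rate treats the 4 libraries as independent, while the untreated and Mock libraries are both of line 682. Tgfbr2 was at 183 FPKM in untreated line 700 and at 109 to 119 FPKM in the other 3, and that gap was 0.859 of the range, above the critical value of Dixon's test. Acvr1b was at 26.9 FPKM in untreated line 889 and at 52.8 to 56.5 FPKM in the others, and that gap was 0.874 of the range. With dox, Acvr1b was also low in line 889, at 25.0 FPKM against 46.9 FPKM in line 700, while Tgfbr2 was lower in line 700, at 138 FPKM, than in line 889, at 159 FPKM.

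Tgfb3 was higher with dox in 2 of 2 BME pairs and lower in 3 of 3 plastic pairs. The interaction of dox and environment was -0.55 (SE 0.61), with an adjusted limma p of 1.0, so the difference did not pass the test. It was -1.01 (SE 0.44) with the line as a block, -0.87 without the Mock library, -1.26 (SE 0.56) with that library in the dox arm and -1.23 (SE 0.61) over lines 700 and 889 alone, with adjusted limma p-values from 0.915 to 1.0 over its alternatives. Leaving out 1 library gave -0.87 to -0.27, with -0.27 without the BME untreated library of line 889 and likewise without the plastic dox library of line 700, -0.30 without the BME dox library of line 700 and -0.34 without the plastic untreated library of line 889.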

How the results depend on the processing

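Of 323 alternative values for the changes of the ligand and receptor genes, 298 kept their direction and their side of the threshold and 25 had the other sign, and none of these genes was called under any of them. Adjusted limma p-values over the alternatives ran from 0.559 to 1.0 for Tgfb1 in BME and 0.203 to 0.985 on plastic, and from 0.264 to 0.999 for Tgfb3 on plastic. Smad4 on plastic was called only without the dox library of line 700, with a change of 3.98 and an adjusted limma p of 0.0267.

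The other sign appeared mostly for changes near 0. With the line as a replicate block, which pairs libraries of the same line, the BME change was 0.245 for Tgfb3 and 0.0806 for Tgfbr1. The block changed no call on these genes. With the Mock library left out, Tgfb3 was 0.10 in BME, and with it in the dox arm Tgfb3 was 0.49, Tgfbr1 0.0428 and Tgfbr2 -0.0286. By limma-voom, Acvr2a in BME was -0.0043 with either filter and Inhba on plastic was -0.0527 and -0.0529, -0.0562 with the block added and -0.0214 after median centring. limma-voom with at least 10 mean reads and the block gave 0.33 for Tgfb3, 0.0464 for Tgfbr1 and -0.042 for Tgfbr2 in BME. Leaving out 1 library at a time, the BME change ranged from -0.50 to 0.10 for Tgfb3, -0.0042 to 1.26 for Tgfbr3, -0.86 to 0.0203 for Acvr1b and -0.14 to 0.26 for Acvr2a, and the plastic change from -0.51 to 0.17 for Tgfbr2 and -0.46 to 0.51 for Inhba. Where this left a single dox library in BME, that library was assumed to vary like the controls.

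Over all genes, 3 were called in BME. The count was 0 with the replicate block, at a minimum of 2 FPKM, with the Mock library left out or in the dox arm, and by limma-voom with at least 10 mean reads with or without the block. It was 1 with a pseudocount of 0.1 and 1 by limma-voom, and 0 to 37 with 1 library left out, the highest without the dox library of line 700. On plastic 4 were called, against 7 with the replicate block, 10 with a pseudocount of 0.1 (5 higher, 5 lower, against 3 and 1), 0 without a filter, 10 by limma-voom (3 higher, 7 lower), and 0 and 2 by limma-voom with at least 10 mean reads without and with the block. Leaving out 1 library gave 0 to 55, the highest without the dox library of line 700. For the difference between environments 0 were called, and 9 without a filter. The cause of these shifts was not tested. Few reads limit Inhbb, Tgfb2 and BME Inhba, with at most 23 reads per BME library. They also limit Tgfbr3, with at most 2 reads in untreated plastic libraries and 3 in the untreated BME library of line 889.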
